A study of Homo sapiens with 9 samples.

Results

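Expression in SK-N-AS cells given a construct for truncated NRSF (HZ4) was compared with that in untreated SK-N-AS cells at the same hour, 24 h or 48 h, on 4 of the 9 arrays of the series. Probe sets were kept where the signal was 100 or more on at least 2 of these 4 arrays, and controls were left out. This kept 16497 of 54613 non-control probe sets, which named 8727 genes of the 19775 named on the array. The second-highest of the 4 signals was 100.02 for the probe set nearest to the limit on the inside and 99.98 for the nearest one left out. Of the kept probe sets, 277 reached 100 on both truncated NRSF arrays and on neither untreated array, and 174 on both untreated arrays and on neither truncated NRSF array. Such probe sets entered only through the group in which they were brighter.

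SK-N-AS is an established human neuroblastoma cell line, grown in DMEM with fetal bovine serum. The full series held an array at 0 h, 24 h and 48 h for each of 3 conditions: full-length NRSF from the RE-EX1 construct, truncated NRSF from the HZ4 construct, and no construct. The truncated NRSF group at each hour was thus SK-N-AS cells carrying HZ4, and the untreated group was the same line without a construct. The labels called the 0 h arrays of both constructs baseline controls, and the 0 h arrays of truncated NRSF and untreated cells were used here only to show how far the conditions differed before the time course. The design text spoke of triplicates over batches, but each group was a single array with no batch or replicate number, so a difference at one hour had no replicate check. What is truncated in HZ4, its promoter, how it entered the cells and an empty-vector control were not given in the sources used here; construct delivery and truncated NRSF cannot be told apart in any value that follows.

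NRSF, encoded by REST, is a zinc finger repressor that binds the RE1 element beside many neuronal genes and silences them outside neurons. It recruits SIN3 through its amino-terminal part and CoREST through its carboxy-terminal part, and both complexes carry the histone deacetylases HDAC1 and HDAC2. Truncated NRSF forms that keep some of the zinc fingers but lose the carboxy-terminal repressor domain are known from neuroblastoma and other tumours. Whether HZ4 encodes such a form was not stated in the sources used here.

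The deposited values were linear signals with nearly the same trimmed mean on every array. The truncated NRSF array at 24 h was compressed: its median signal over all probe sets was 42.7, against 31.0 to 32.8 on the other 3 arrays, and its 95th percentile over the kept probe sets was 2510, against 2728 to 2958. The 3'/5' ratio of ACTB, a sign of RNA integrity, was 3.23 and 2.84 on the truncated NRSF arrays at 24 h and 48 h and 2.45 and 3.47 on the untreated ones. Mesenchymal neuroblastoma markers were clearly present, with 9 of 9 at 100 or more on at least 2 arrays and VIM between 9701 and 13402. Of 9 sympathoadrenal markers, 4 reached that level (PHOX2A, GATA2, GATA3 and ISL1), whereas the noradrenaline enzymes TH and DBH did not exceed 21.5 and 99.7. None of 6 epithelial and none of 4 Schwann and melanocyte markers reached it, and of the blood and endothelial markers only PTPRC and PECAM1 did. The summed sympathoadrenal signal was 2373 and 2767 with truncated NRSF and 2256 and 2549 without, and the summed mesenchymal signal 21486 and 23868 against 23944 and 27660. In these bulk samples, fewer cells of a kind and less RNA per cell cannot be told apart.

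Most probe sets differed little between truncated NRSF and untreated cells, and the few large differences were seldom seen at both hours. Differences are given as log2 of the truncated NRSF signal minus log2 of the untreated signal at the same hour, after signals below 8.27 were raised to that floor. The median size of the difference was 0.29 at 24 h and 0.25 at 48 h, beside 0.23 between the 0 h arrays. At 24 h, 350 probe sets (2.12%) were at least 2-fold higher and 498 (3.02%) at least 2-fold lower with truncated NRSF, 848 (5.14%) in all. At 48 h, 289 (1.75%) were higher and 217 (1.32%) lower. Between the 0 h arrays, 228 (1.38%) were higher and 236 (1.43%) lower. The 2-fold differences at 48 h were thus 506 (3.07%) in either direction, against 464 (2.81%) before the time course.

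The 24 h and 48 h differences rest on separate arrays. At both hours, 34 probe sets (0.206%) were 2-fold or more higher and 31 (0.188%) 2-fold or more lower, while 12 (0.0727%) lay 2-fold or more in opposite directions. Quantile normalization of the 4 arrays gave 23 higher and 38 lower. Over the 16497 probe sets, Pearson's r between the 2 differences was 0.22 and Spearman's rho 0.22, a description across probe sets that are not independent. It was 0.16 in the dimmest quintile of probe sets and 0.40 in the brightest. The 0 h difference correlated with that at 24 h at r = -0.19 and with that at 48 h at -0.06.

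**Figure D1:**
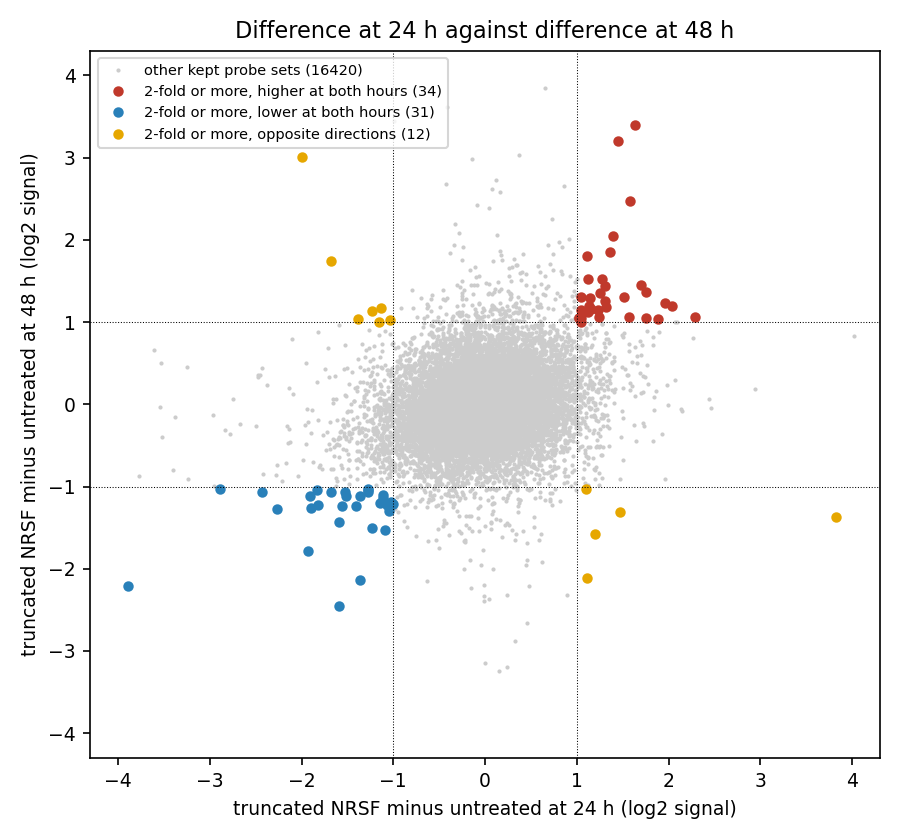
Each point is a kept probe set; the horizontal axis is truncated NRSF minus untreated at 24 h and the vertical axis the same at 48 h, both in log2 signal, with dotted lines at 2-fold. The 34 probe sets higher and the 31 lower at both hours lie beyond the dotted lines on both axes by definition, some of them close to the lines. Another 12 lie in the opposite corners.

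Direction depended on how bright a probe set was. Kept probe sets were divided into quintiles by their mean signal over the 4 arrays, with median signals of 111, 179, 299, 557 and 1535. At 24 h, 226 probe sets of the dimmest quintile were 2-fold or more higher and 175 lower, whereas 1 of the brightest quintile was higher and 66 lower. At 48 h the brightest quintile held 4 higher and 16 lower, and at 0 h it held 14 higher and 3 lower. The lean of bright probe sets towards lower signals with truncated NRSF was thus present at both hours and in the opposite direction at 0 h. Compression of the truncated NRSF array moves with it at 24 h, and its part in the 24 h counts was not tested. In the brightest quintile, 38.1% of probe sets were lower at both hours by sign, against 30.2% of all kept probe sets.

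**Figure D2:**
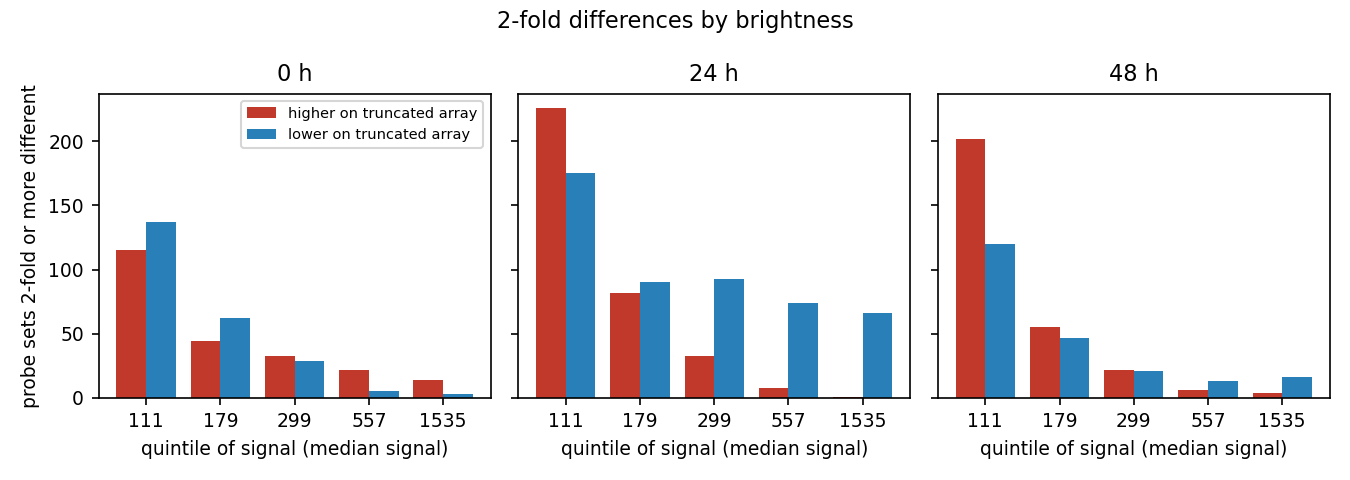
Bars count the probe sets that were 2-fold or more higher (red) or lower (blue) on the truncated NRSF array, by quintile of signal, at 0 h, 24 h and 48 h; the horizontal axis gives each quintile's median linear signal. In the brightest quintile 66 were lower and 1 higher at 24 h, 16 and 4 at 48 h, and 3 and 14 at 0 h.

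Genes whose signal was lower with truncated NRSF at both hours included subunits of the respiratory chain, a tRNA synthetase, the mitochondrial co-chaperonin and HDAC2 itself. A single model over the 4 arrays, limma with hour as a block, called 29 probe sets lower (0.176%) and 1 higher (0.00606%) at a Benjamini-Hochberg adjusted p under 0.05 over all kept probe sets. The 30 calls named 23 genes, and for 14 of these the called probe set was the gene's brightest. By brightest probe set, 13 genes were lower (0.149% of 8727) and 1 higher (0.0115%). The 29 lower calls ranged from -0.87 to -3.05 in log2. Of them, 26 had a highest signal of 1000 or more and 24 lay in the brightest quintile. This fit takes the hours as repeated readings, so its 1 residual degree of freedom is the change of the difference between hours and not the spread of cultures, and its p-values say nothing about other cultures. Without limma's mean-variance trend no probe set was called, with 1579 at an unadjusted p under 0.05 as against 1940 with it. Quantile normalization gave 198 lower and 43 higher calls and cyclic loess 275 and 87, both with all 30 among them. With a signal of 100 or more required on all 4 arrays, 9 of the 30 were still called.

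UQCRB, a subunit of respiratory complex III, had signals of 1056 at 24 h and 1600 at 48 h with truncated NRSF, against 3176 and 4326 without. Both truncated NRSF arrays were below both untreated arrays. Here and for the other called genes, such separation largely follows from their being picked on these same arrays. The share of all kept genes that separate so was not counted. The differences were -1.59 and -1.43, and limma gave -1.51 ± 0.15 (SE), adjusted p = 0.0017. A second UQCRB probe set was also called, but the third and dimmest did not follow, at -0.29 and 0.12 (limma adjusted p = 0.94). NDUFA1, a complex I subunit, read 1051 and 1121 against 3368 and 1938, again with no overlap (limma -1.24 ± 0.20, adjusted p = 0.032). At 0 h the order was the other way: UQCRB read 4419 on the truncated NRSF array and 3028 on the untreated one, and NDUFA1 3593 and 1766.

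RARS1, the cytosolic arginyl-tRNA synthetase, read 1016 and 1794 with truncated NRSF and 4879 and 4333 without. Its difference was -2.26 at 24 h and -1.27 at 48 h (limma -1.77 ± 0.20, adjusted p = 0.0036), and the 0 h arrays were close, at 3683 and 3323. BEX3, an adaptor of the p75 neurotrophin receptor, read 2299 and 2827 against 6787 and 6674, with 6985 and 6711 at 0 h (limma -1.40 ± 0.16, adjusted p = 0.0031). For these genes the untreated signal was nearly level over the time course or above its 0 h value, and the lower values were those of the truncated NRSF arrays.

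HDAC2, the deacetylase of the SIN3 and CoREST complexes, read 407 and 654 with truncated NRSF and 988 and 1344 without. All truncated NRSF values at 24 h and 48 h were below both untreated ones (limma -1.16 ± 0.18, adjusted p = 0.025). At 0 h the truncated NRSF array was the higher, 1095 against 830. HSPE1, the small subunit of the mitochondrial chaperonin, read 1557 and 2059 against 3365 and 3973 (limma -1.03 ± 0.15, adjusted p = 0.022). FEN1, the flap endonuclease that trims Okazaki fragments, read 603 and 1003 against 1401 and 1790 (limma -1.03 ± 0.17, adjusted p = 0.037).

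Other called genes, here and in what follows (MAST2, NAP1L1, PDIA4 and ACTB), lay outside the rule for named genes and were chosen after their values were seen. CRABP2, which carries retinoic acid to its nuclear receptor, read 1207 and 1278 with truncated NRSF and 4280 and 2625 without (limma adjusted p = 0.010), but at 0 h it read 4462 on the truncated NRSF array and 2208 on the untreated one. S100A11, a calcium-binding protein, read 3407 and 3788 against 6931 and 8835, with 0 h signals of 4856 and 4939 (limma adjusted p = 0.011). PTPRS, a receptor tyrosine phosphatase of axons, read 520 and 706 against 1061 and 1610 (limma adjusted p = 0.025). In PTPRS both conditions were far below their 0 h signals of 3366 and 2898, and its other kept probe set gave -0.11 and -0.65. The mitochondrial thiolase ACAA2 was lower by 1.09 in log2 units (limma adjusted p = 0.044), but its other kept probe set gave 0.01 and 0.03. The G protein subunit GNG5 was lower by 0.87 (limma adjusted p = 0.046). A probe set of the _x_ type, which may bind other transcripts, was also called; the annotation gives it to a microRNA locus, and no microRNA value is taken from it.

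MAST2, a microtubule-associated serine/threonine kinase, was the gene called higher. It read 682 and 537 with truncated NRSF and 185 and 261 without, with 203 and 236 at 0 h, so that both truncated NRSF values stood above the other 4 (limma 1.46 ± 0.24, adjusted p = 0.032). Its dimmer probe set did not follow, at 0.56 at 24 h and -0.37 at 48 h. The largest called difference belonged to a probe set for which the annotation used here names no single gene. It read 238 and 285 with truncated NRSF against 3512 and 1320 without (limma -3.05 ± 0.29, adjusted p = 0.0016), but 1518 against 322 at 0 h.

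The 0 h arrays and the full-length NRSF arrays bear on how these calls are read. Of the 29 lower calls, 27 had a higher signal on the truncated NRSF array than on the untreated one at 0 h, with a median 0 h difference of 0.48. The full-length NRSF arrays are set against the same untreated arrays, so agreement with them is no independent evidence. Their signals are given without a test. At 24 h and 48 h with full-length NRSF, UQCRB read 1313 and 2015, BEX3 4032 and 3326, RARS1 2741 and 2161, HDAC2 657 and 823, and FEN1 1977 and 1818. The full-length values lay below both untreated values for UQCRB, BEX3, RARS1 and HDAC2, and above both for FEN1. NDUFA1, also called, read 2428 and 1451 with full-length NRSF against 3368 and 1938 untreated, so these conditions overlapped. These genes are a part of those called, and the share of all kept genes in such an order was not counted. MAST2 read 321 and 243 with full-length NRSF, below both truncated NRSF values.

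**Figure D3:**
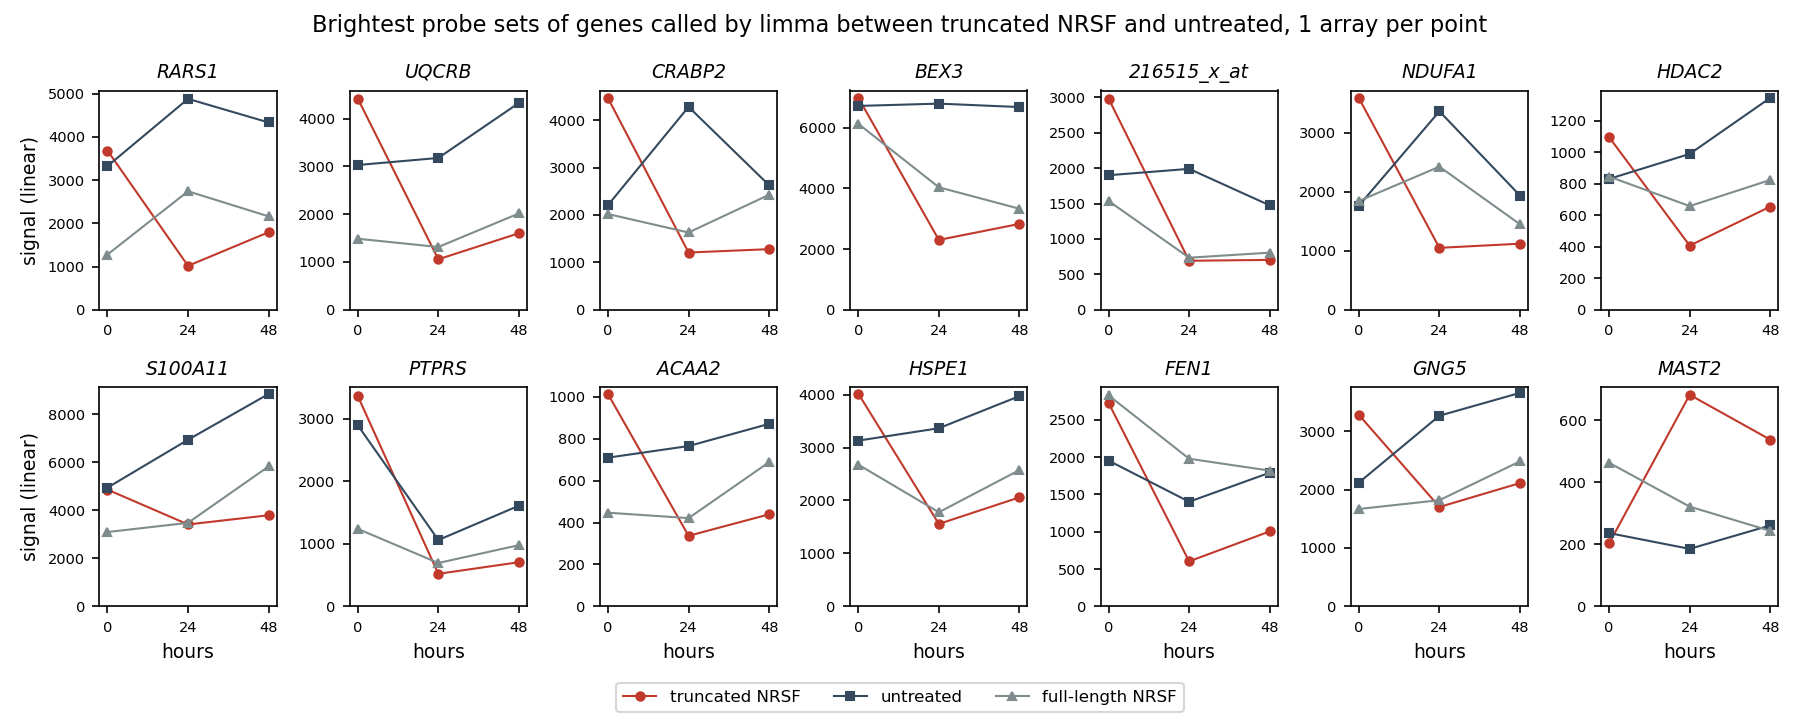
Linear signal against hours for the 14 genes whose brightest probe set limma called, 1 array per point, for truncated NRSF (red), untreated (dark) and full-length NRSF (grey); 1 panel is titled by its probe set. In 13 panels the red points at 24 h and 48 h lie below both dark ones, and in the MAST2 panel, at 682 and 537, above them. The genes were picked by limma on these same arrays, so this separation largely follows from the choice.

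Uncalled probe sets of the called genes mostly did not show the same difference. Beside the called probe sets, the called genes had 26 further kept probe sets, from 14 genes. These are the uncalled ones by definition, so they lean towards smaller differences, and the second called UQCRB probe set is not among them. Their median difference over both hours was -0.12, the range -0.91 to 0.29, and 18 lay within 0.5 of 0. For NAP1L1, a nucleosome assembly protein, 1 probe set was called (limma adjusted p = 0.022, at -1.63 and -0.90), while the brightest read 6310 and 5322 against 5512 and 5710. FEN1's second probe set gave 0.44 at 24 h and 0.13 at 48 h, against -1.22 and -0.83 for the called one. PDIA4, a protein disulfide isomerase of the endoplasmic reticulum, gave -1.53 and -0.91 on its called probe set and -0.09 and 0.07 on the other. ACTB was among the exceptions: its called probe set gave -1.10 and -0.82, and the other 2 gave -0.93 and -0.72, and -0.71 and -0.81. All of these ACTB probe sets are of the _x_ type, which may bind other transcripts. ACTB's signals are among the brightest, and its brightest probe set read 8041 and 9452 against 15283 and 15563. For 9 called genes there was no second kept probe set.

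Genes at least 2-fold higher at both hours were mostly dim. Of the 34 probe sets, 22 had a highest signal under 200, none reached 1000, and 27 reached 100 on the truncated NRSF arrays only, so that the filter let them in through the group in which they were high. By brightest probe set, 17 genes (0.195%) were higher and 17 (0.195%) lower. The 12 named genes were MYL10, BAIAP2, CEBPA-DT, PRSS35, SRRM3, HS6ST1, LINC02875, TBC1D10A, CAMK2N2, KLHL21, CCDC32 and RIN1. All of them but PRSS35, KLHL21 and CCDC32 reached 100 on the truncated NRSF arrays only. None of these 12 was called by limma; KLHL21 came nearest with an adjusted p of 0.094.

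KLHL21, a substrate adaptor of the CUL3 ubiquitin ligase in dividing cells, read 458 and 331 with truncated NRSF and 206 and 148 without, differences of 1.15 and 1.16. At 0 h it was the lower on the truncated NRSF array, 60.4 against 148. With full-length NRSF it read 389 and 425. PRSS35, a serine protease-like protein, was dim at 24 h, with 44.0 against 16.8, and clear at 48 h, with 549 against 133. Both conditions stood at about 38 at 0 h, so the gene was higher at 48 h than at 0 h with and without the construct.

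Some of the dim genes have neuronal or signalling roles, but the share of all kept genes with such roles was not counted. The filter let in SRRM3, CAMK2N2, BAIAP2 and RIN1 only through truncated NRSF, the group in which they were high. SRRM3, a regulator of neuronal microexon splicing, read 157 and 105 with truncated NRSF and 55.0 and 42.3 without, but 175 and 159 at 0 h. It was therefore lower than at 0 h on all 4 arrays, less so with truncated NRSF. CAMK2N2, an inhibitor of the calcium/calmodulin kinase CaMKII, read 163 and 112 against 41.9 and 47.6. BAIAP2, which links small GTPases to actin, read 113 and 101 against 34.7 and 36.8. RIN1, a RAS effector, read 209 and 123 against 96.3 and 56.1, and had been lower on the truncated NRSF array at 0 h, at 43.7 against 159.

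Among the rest, HS6ST1, a heparan sulfate 6-O-sulfotransferase, read 153 and 166 against 62.2 and 61.1. TBC1D10A, a GTPase-activating protein for Rab proteins, read 197 and 203 against 82.7 and 79.2. In HS6ST1 and TBC1D10A the values within a condition were close at the 2 hours. MYL10, a myosin light chain, had the largest 48 h difference of the 12, 3.40, which rests on an untreated signal of 12.7, and its 0 h difference was -3.26. By brightest probe set, PSAPL1 was the only gene also 2-fold or more higher at 0 h, at 2.03, 1.20 and 1.31 at 24 h, 48 h and 0 h.

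Genes at least 2-fold lower at both hours were a mix of bright called genes and dim ones. Of the 31 probe sets, 12 reached 100 on the untreated arrays only, so the filter let them in through the group in which they were high. Those of CBX2, SIL1, B3GAT3, FHL3 and POTEKP were among them. Beside UQCRB, RARS1 and BEX3, the named genes were POTEKP, KIAA1143, CBX2, PRR14, CIZ1, SIL1, FHL3 and B3GAT3 and the microRNA locus of the cross-hybridizing probe set above. CBX2, a Polycomb protein that reads methylated histone H3, read 94.4 and 85.4 with truncated NRSF and 222 and 241 without. Its 0 h signals were 279 and 248, so the untreated values stayed near them. SIL1, a nucleotide exchange factor of the chaperone BiP, read 83.8 and 49.8 against 179 and 144. B3GAT3, which completes the linker of glycosaminoglycan chains, read 55.2 and 43.4 against 114 and 107. None of CBX2, SIL1 and B3GAT3 was called by limma, with adjusted p of 0.12, 0.22 and 0.38.

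For several of these, a second probe set differed less. KIAA1143 gave -1.41 and -1.24 on its brightest probe set and -0.01 and 0.48 on another. PRR14, which tethers heterochromatin to the nuclear lamina, gave -1.14 and -1.20 on the brightest and -0.26 at both hours on another. CIZ1, a nuclear matrix protein, gave -1.36 and -1.12 on a probe set marked for possible cross-hybridization. Its other kept probe sets gave 0.06 and -0.46, and -1.30 and -0.45. FHL3, a LIM domain protein, read 22.1 and 55.5 with truncated NRSF and 119 and 116 without, but 71.1 and 46.2 at 0 h and 197 and 101 with full-length NRSF. POTEKP is an actin-related pseudogene whose sequence resembles ACTB, so its -1.59 and -2.46 cannot be assigned to it alone.

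REST itself was not distinguishable. Its kept probe set read 323 and 342 with truncated NRSF and 445 and 260 without, so the conditions overlapped, and the differences were -0.46 and 0.39 (limma adjusted p = 0.97). At 0 h the signals were 162 and 177. Both other REST probe sets fell under the filter; the brighter of them read 122 and 44.3 with truncated NRSF and 44.1 and 6.63 without. Whether any of these probes lie in the sequence that HZ4 carries is unknown here, and REST signals do not check the construct. In full-length NRSF cells the kept probe set read 268 and 274.

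Of 32 listed genes of NRSF and its corepressors, 25 had a kept probe set. HDAC2 was 2-fold or more lower at both hours and called, and no other member passed 2-fold at either hour. The background over all kept genes was 1.71% higher and 2.64% lower at 24 h and 1.26% and 1.23% at 48 h. By sign, 11 of the 25 were lower and 2 higher at both hours, against 32.5% lower and 26% higher of all kept genes, and the medians were -0.05 and -0.17, against -0.03 and -0.03. HDAC1, the paralogue of HDAC2, read 768 and 1101 against 1061 and 1401, differences of -0.47 and -0.35. The CoREST scaffold RCOR1 read 578 and 561 against 713 and 569. The demethylase KDM1A of the same complex read 720 and 610 against 529 and 767, and the scaffold SIN3A 264 and 114 against 172 and 176. For RCOR1, KDM1A and SIN3A the conditions overlapped or changed order between hours.

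Neuronal genes that carry RE1 elements were mostly too dim to follow. Of 68 listed targets, 62 were on the array and 16 were kept. At 24 h, 1 of the 16 was 2-fold or more lower and none higher, and at 48 h none was in either direction. Medians were -0.01 at 24 h and -0.07 at 48 h, against -0.03 and -0.03 over all kept genes. By sign, 4 (25%) were higher and 7 (43.8%) lower at both hours, against 26% and 32.5% of all kept genes. NEFM, the medium neurofilament chain, read 793 and 1263 with truncated NRSF and 1638 and 1520 without. SNAP25, a component of the synaptic fusion machinery, read 186 and 369 against 104 and 280, differences of 0.83 and 0.40 (limma adjusted p = 0.39). SNAP25 was higher within each hour, but its 2 conditions overlapped across hours.

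Other RE1 targets lay on either side of the untreated values. NPY, a neuropeptide of sympathetic neurons, read 403 and 707 with truncated NRSF and 583 and 920 without. CRH, corticotropin-releasing hormone, read 1491 and 6681 against 2615 and 6707, so that it was lower at 24 h and level at 48 h. VGF, a secreted neuroendocrine protein whose probe set is marked for possible cross-hybridization, read 508 and 389 against 476 and 356. CELSR3, an atypical cadherin of axon guidance, read 142 and 121 against 121 and 151. INA, the neurofilament protein alpha-internexin, read 360 and 181 against 250 and 149. None of these was called by limma, with adjusted p of 0.36 for NPY, 0.41 for CRH, 0.88 for VGF, 0.97 for CELSR3 and 0.58 for INA.

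Promoter windows from RefSeq (GRCh38.p14, from 250 bases before to 50 after the start of each gene) were searched on both strands for the left and right parts of RE1, TTCAGCACC and GACAGCGCC, and for other short motifs. A window was listed for 7324 of the 8727 kept genes and for 10 of the 16 kept RE1 targets. By exact letters, the left part was in 0.259% and the right part in 0.847% of the 7324. Among the 10 targets, CELSR3 held both parts and VGF the right part. In CELSR3 the right part comes first and the left part stands apart from it, so these letters do not form a whole RE1. The windows of these genes are shown because they carry RE1 letters next to a gene that read nearly the same with and without truncated NRSF. Both lie on the minus strand, CELSR3 at chr3:48662837-48663136 and VGF at chr7:101165520-101165819, and read 5' to 3' with capitals for RE1 parts, the CRE letters TGACGTCA, the E-box CACGTG and the CCAAT box.
CELSR3: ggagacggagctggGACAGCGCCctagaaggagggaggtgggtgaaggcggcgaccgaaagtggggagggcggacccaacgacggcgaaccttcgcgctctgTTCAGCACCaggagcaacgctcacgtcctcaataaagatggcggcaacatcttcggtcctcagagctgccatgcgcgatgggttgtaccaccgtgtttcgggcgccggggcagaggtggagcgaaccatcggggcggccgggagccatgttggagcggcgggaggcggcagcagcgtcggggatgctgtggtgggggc
VGF: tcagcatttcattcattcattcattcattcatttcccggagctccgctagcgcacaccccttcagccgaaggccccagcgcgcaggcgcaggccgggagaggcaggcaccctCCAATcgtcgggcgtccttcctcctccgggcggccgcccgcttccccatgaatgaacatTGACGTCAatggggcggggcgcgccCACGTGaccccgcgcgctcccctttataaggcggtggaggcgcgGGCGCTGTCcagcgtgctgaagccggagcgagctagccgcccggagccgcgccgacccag
In VGF the right part stands as its reverse complement. Shortly after it come the letters cgtgctgaa, which differ from GGTGCTGAA, the reverse complement of the left part, in the first letter only. The search for exact letters did not count them, so VGF holds more of RE1 than the right part alone. These matches describe letters in a window and not binding.

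By exact letters, neither part of RE1 was found in the 16 windows listed for the 17 genes higher at both hours. Neither was in the 13 windows for the 17 genes lower at both hours or the 12 for the 14 genes called by limma. The AP-1 letters TGACTCA, on either strand, were in 2 of the 16 windows of higher genes (12.5%) and in 2.72% of all 7324. The CRE letters were in 3 of the 13 windows of lower genes (23.1%), against 3.52% of all. With so few windows these shares are descriptions. The windows of KLHL21 and PTPRS are shown as an example of each, followed by that of HDAC2, which held none of the searched motifs. All are on the minus strand, KLHL21 at chr1:6602820-6603119, PTPRS at chr19:5340763-5341062 and HDAC2 at chr6:113971099-113971398, with capitals for AP-1, CRE, E-box and CCAAT letters (ATTGG on the opposite strand).
KLHL21: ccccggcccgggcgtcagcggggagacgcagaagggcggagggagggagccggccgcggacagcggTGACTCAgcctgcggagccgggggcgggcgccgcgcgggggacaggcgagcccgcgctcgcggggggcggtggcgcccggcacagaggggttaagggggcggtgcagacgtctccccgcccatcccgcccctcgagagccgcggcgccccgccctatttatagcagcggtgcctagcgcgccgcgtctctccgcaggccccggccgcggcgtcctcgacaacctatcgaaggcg
PTPRS: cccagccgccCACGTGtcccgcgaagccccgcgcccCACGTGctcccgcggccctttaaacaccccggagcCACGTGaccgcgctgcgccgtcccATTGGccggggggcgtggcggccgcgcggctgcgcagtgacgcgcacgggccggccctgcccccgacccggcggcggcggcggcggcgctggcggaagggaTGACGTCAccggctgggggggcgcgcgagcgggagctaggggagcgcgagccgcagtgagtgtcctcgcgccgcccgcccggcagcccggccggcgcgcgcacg
HDAC2: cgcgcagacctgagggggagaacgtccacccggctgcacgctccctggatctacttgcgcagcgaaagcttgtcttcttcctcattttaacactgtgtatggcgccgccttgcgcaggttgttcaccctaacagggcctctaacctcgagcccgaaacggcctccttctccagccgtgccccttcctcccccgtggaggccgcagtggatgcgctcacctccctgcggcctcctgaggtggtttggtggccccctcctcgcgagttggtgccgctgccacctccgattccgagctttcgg
KLHL21 held 1 motif and PTPRS 5, of which 3 were E-boxes.

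Of 12 kept sympathoadrenal genes, 7 (58.3%) were lower and 0 higher at both hours by sign, against 32.5% and 26% of all kept genes. None of the 12 was called by limma. Their medians were -0.20 and -0.13, and -0.13 already at 0 h, where 8 of the 12 were lower on the truncated NRSF array. The summed signal of the 9 sympathoadrenal markers given above was the higher with truncated NRSF at each hour, but few genes weighed on it. At 24 h HAND2, ISL1, TH and DBH were higher, and PHOX2A, GATA2, GATA3, CHGA and CHGB lower. DBH read 99.7 against 2.27 there and was under 100 on all 4 arrays. At 48 h GATA2, GATA3, DBH and CHGB were higher and the others lower, with GATA3 at 1836 against 1627. TBX2, a T-box factor of neuroblastoma cells, read 667 and 489 with truncated NRSF and 775 and 1081 without. RET, the GDNF family receptor, read 161 and 279 against 322 and 360. RET had stood at 1150 and 727 at 0 h, so both conditions were well below that. Of 21 kept neuronal cytoskeleton and axon genes, 10 (47.6%) were lower and 3 (14.3%) higher at both hours by sign, beside the same 32.5% and 26%. ANK3, ankyrin G of the axon initial segment, read 438 and 264 against 911 and 447 (limma adjusted p = 0.10), while its other kept probe set gave -0.01 and -0.78. TUBA1A, an alpha-tubulin, read 1858 against 5730 at 24 h but 5424 against 5175 at 48 h.

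Of 26 kept mesenchymal neuroblastoma genes, none was 2-fold different at either hour. By sign, 10 (38.5%) were lower and 5 (19.2%) higher at both hours, against 32.5% and 26% of all kept genes. The medians were -0.13 at 24 h and at 48 h. At 0 h the median was already -0.24, and 21 of the 26 were lower on the truncated NRSF array. COL3A1, a fibrillar collagen chain, read 1051 and 1966 with truncated NRSF and 1989 and 2440 without, and FOSL1, an AP-1 subunit, 605 and 211 against 718 and 406. COL3A1 had read 3359 on the truncated NRSF array and 4697 on the untreated one at 0 h. Other kept probe sets of COL3A1 gave -0.81 and -0.39, and -0.07 and 0.20. Among 26 TGF-beta and matrix genes, 3 were 2-fold or more lower at 24 h, and 1 higher and 2 lower at 48 h. Over all kept genes 2.64% were lower at 24 h, and 1.26% higher and 1.23% lower at 48 h. ADAMTS1, a secreted metalloprotease, read 139 and 825 against 102 and 275, and 649 with full-length NRSF at 48 h. The inhibitor of differentiation ID1 read 2049 and 2542 against 4213 and 3209, and ID2 1230 and 1835 against 2719 and 2100.

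Genes of G2 and mitosis mostly had lower signals with truncated NRSF, by small amounts. Of 35 kept members, 22 (62.9%) were lower and 5 higher at both hours by sign, against 32.5% and 26% of all kept genes. The medians were -0.27 and -0.17, and -0.10 already at 0 h. PLK1, the mitotic kinase, read 82.4 and 172 with truncated NRSF and 244 and 286 without (limma adjusted p = 0.16). KIF20A, a kinesin of cytokinesis, read 303 and 278 against 447 and 598, and CDK1 741 and 1273 against 1151 and 1754. The other 2 kept probe sets of CDK1 did not show this, at -0.01 and 0.01, and 0.25 and -0.06. The list's median over both hours was -0.24, and -0.15 with the mean of a gene's probe sets. KIF23 changed order between hours, at 156 and 268 against 387 and 180. None of the 35 was called by limma, and FEN1 was the only one of 36 kept DNA replication genes that was. The replication list's medians were -0.12 and -0.07.

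NF-kB and cytokine genes had the lowest list median at 24 h, -0.40, with -0.12 at 48 h and 0.20 at 0 h. Of 23 kept members, 15 (65.2%) were lower and 5 (21.7%) higher at both hours by sign, against 32.5% and 26% of all kept genes. CXCL2, a neutrophil chemokine measured by an _x_ probe set, read 376 and 255 with truncated NRSF and 1044 and 468 without, and just missed the threshold (limma adjusted p = 0.051). IL6 read 201 and 151 against 404 and 254, and CSF1, the macrophage growth factor, 196 and 113 against 333 and 186. In IL6 and in CXCL2 the truncated NRSF values were below both untreated ones. Both genes were named because they differed most in this list, so this separation largely follows from the choice. The share of all kept genes that separate so was not counted. At 0 h both genes had been higher on the truncated NRSF array, IL6 at 97.9 against 45.3 and CXCL2 at 639 against 370. RELB, an NF-kB subunit, went the other way, at 409 and 151 against 211 and 110.

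Immediate early genes did not share a direction at 24 h, with a median of 0.05, and their median was -0.15 at 48 h and 0.44 at 0 h. MAFF, a small MAF factor, read 522 against 1647 at 24 h and 504 against 481 at 48 h. ARC, an activity-regulated cytoskeletal protein, read 176 and 35.7 with truncated NRSF and 297 and 108 without. EGR1, a zinc finger activator, read 20656 against 19580 at 24 h and 1534 against 3113 at 48 h. Of the interferon genes, RSAD2, the antiviral enzyme viperin, read 341 and 123 against 205 and 34.8, whereas IFITM3, a membrane protein that blocks virus entry, read 1602 and 2555 against 3271 and 3529. The interferon list of 22 genes had medians of -0.14 and 0.03.

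Genes of oxidative phosphorylation held 2 of the called genes, UQCRB and NDUFA1, among 31 kept. At 24 h 4 were 2-fold or more lower and none higher, and at 48 h 1 was lower. Over all kept genes 2.64% were lower at 24 h, 1.23% at 48 h, and 0.149% were called lower. Their medians were -0.20 and -0.07, and 0.18 at 0 h, where 27 of the 31 were higher on the truncated NRSF array. SDHA, the catalytic subunit of complex II, read 227 and 431 with truncated NRSF and 598 and 590 without, but 1643 against 795 at 0 h. UQCRQ, another complex III subunit, read 1609 and 2707 against 2651 and 3909. ATP5PF of the ATP synthase was lower at 24 h only, at 1703 against 3679, and was 3083 against 2981 at 48 h.

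Of 25 kept cytosolic ribosomal protein genes, 17 (68%) were lower and 1 (4%) higher at both hours by sign, against 32.5% and 26% of all kept genes. Their medians were -0.11 and -0.28, and the median over both hours, -0.19, moved to -0.05 after quantile normalization and -0.08 after cyclic loess. RPL19 read 6707 and 8942 with truncated NRSF and 10567 and 13636 without, and none of the 25 was called by limma. In the brightest quintile of probe sets the lower share was 38.1%, so brightness moves with this list, and its part was not tested. Heat shock genes held HSPE1 as their only called member, with HSP90AB1, a cytosolic HSP90, at 3998 and 5811 against 7191 and 8019. STIP1, the co-chaperone that joins HSP70 and HSP90, read 759 and 827 against 1071 and 1586. Other kept probe sets differed less, at -0.20 and 0.09 for STIP1, and -0.39 and 0.39, and -0.27 and -0.12, for HSP90AB1. The heat shock medians were -0.14 and -0.25. Over both hours the median was -0.13, and -0.02 after quantile normalization.

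Of 32 kept hypoxia and glycolysis genes, none was 2-fold different at 24 h and 3 were lower at 48 h, against 1.23% of all kept genes. The medians were 0.00 and -0.25, and -0.15 at 0 h, where 23 of the 32 were lower on the truncated NRSF array. ANGPTL4, a secreted inhibitor of lipoprotein lipase, read 310 against 362 at 24 h and 92.1 against 368 at 48 h, while its other kept probe set gave -0.16 and -0.60. NDRG1, a stress-induced differentiation gene, read 1249 against 1096 and then 564 against 1725. With full-length NRSF at 48 h ANGPTL4 read 119 and NDRG1 517. PFKFB4, a regulator of glycolytic flux, read 64.6 against 145 at 48 h. The change of the difference from 24 h to 48 h was not tested, since each hour had 1 array per condition.

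The remaining lists had 1 or no 2-fold member in a direction at either hour, where all kept genes had up to 2.64%. Of 36 kept unfolded protein and integrated stress response genes, 1 was 2-fold higher at 24 h, with medians of -0.01 and -0.14. EDEM1, which directs misfolded glycoproteins to degradation, was that gene, at 313 and 287 with truncated NRSF against 144 and 178 without. NRF2 targets and metallothioneins (23 kept) had no 2-fold member, and medians of 0.00 and -0.19. The medians were -0.03 and -0.13 for 19 p53 targets, -0.17 and -0.12 for 15 cholesterol synthesis genes, and -0.10 and 0.04 for 14 histone genes. Of the 15 cholesterol synthesis genes, 8 (53.3%) were lower at both hours by sign, against 32.5% of all kept genes. The median of the 15 was already -0.27 at 0 h. By brightest probe set, none of these 5 lists held a gene called by limma; PDIA4, of the unfolded protein list, was called on its dimmer probe set only.

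**Figure D4:**
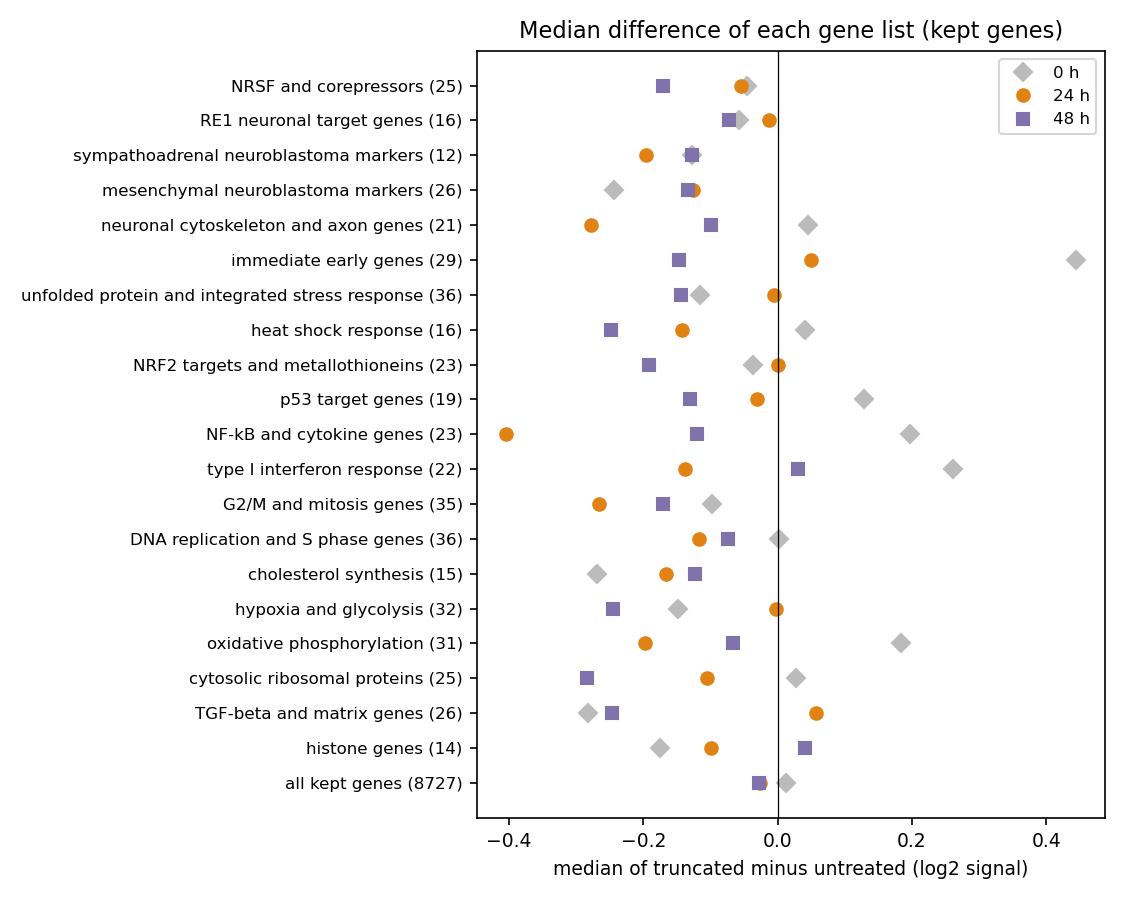
Median of truncated NRSF minus untreated (log2 signal) for each gene list at 0 h (grey diamonds), 24 h (orange circles) and 48 h (purple squares), with the number of kept genes in brackets. The NF-kB list lies lowest at 24 h (-0.40), the ribosomal protein list lowest at 48 h (-0.28), and immediate early genes highest at 0 h (0.44), beside -0.03, -0.03 and 0.01 for all kept genes.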

How the data were processed

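The deposited table gives 1 linear signal intensity per probe set and array (Affymetrix), made by the authors in GCOS (per the submitters' processing notes). Its trimmed mean (2% at each end) is about 150.0 on every array. Signals were floored at 8.27, the 25th percentile of all values, and put on the log2 scale. Genes came from the platform annotation, updated by Entrez ID: 14599 kept probe sets name 1 gene, 768 several, and 1130 are not listed. A gene is represented by its brightest kept probe set.

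Groups follow the labels, 1 array each. Probe sets 2-fold or more different were counted per hour without a test. limma 3.58.1 in R 4.3.3 (hour plus condition, eBayes with trend, two-sided, Benjamini-Hochberg) was fitted on the 4 arrays and tested on simulated data, where more of its calls were false than the nominal rate, so adjusted p-values near the threshold are too small. Members and lists were chosen with earlier results of these data known. Named genes are REST and the 12 in each direction with the largest smaller difference at both hours. Genes also different at 0 h and those in opposite directions were added, with up to 4 per list that differed most over both hours. Not all of these are described in the text. Other list members that are described, such as RCOR1, VGF, ID1 and RELB, lay outside this rule and were chosen with their values known. Other called genes are marked as chosen after their values were seen. In the corepressor list an ambiguous symbol was replaced by PRICKLE1 after values were seen. Scaling, floor, filter, gene summary, 0 h and trend were varied. With 1 array per group, the number of arrays limits the precision.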

Additional observations from a re-analysis of the deposited data

Results flagged for a closer look

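By brightest probe set, 4 genes (0.0458% of 8727) were 2-fold or more different in opposite directions at 24 h and 48 h, and are given because the 2 time points moved apart. The difference between the hours was not tested, as each hour had 1 array per condition, and all 4 genes are dim. ZNF691, a zinc finger protein, read 29.5 and 102 with truncated NRSF and 117 and 12.7 without, differences of -1.99 and 3.01. ZNF468, another zinc finger protein, read 50.6 and 148 against 162 and 44.1, differences of -1.68 and 1.75. MAPKBP1, a scaffold of MAP kinase signalling, read 146 and 36.6 against 67.6 and 158, differences of 1.11 and -2.11. SERPINI1, the neuronal serine protease inhibitor neuroserpin, read 57.8 and 198 against 118 and 97.9, differences of -1.03 and 1.02. With full-length NRSF, ZNF691 read 110 and 9.56, near the untreated values at both hours.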

How the results depend on the processing

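For the 2-fold counts, in the order higher at 24 h, lower at 24 h, higher at 48 h, lower at 48 h, higher at both and lower at both, the 350, 498, 289, 217, 34 and 31 probe sets became 93, 288, 57, 70, 3 and 16 with a signal of 100 on all 4 arrays, 74, 294, 61, 77, 4 and 20 with 200 on at least 2 arrays, and 10012, 5852, 7174, 6522, 2054 and 1052 with no filter. They were 149, 230, 110, 107, 17 and 17 with 1 probe set per gene, and 950, 1269, 786, 806, 306 and 417 for differences net of the 0 h difference. Quantile normalization, cyclic loess and a floor of 50 kept all 6 counts within 1.5 times. Of the 34 higher and 31 lower, quantile normalization kept 23 and 28, loess 26 and 27, and the floor of 50 kept 33 and 31. The limma calls, 1 higher and 29 lower, became 43 and 198 after quantile normalization and 87 and 275 after loess. They were 0 and 9 with 100 on all 4 arrays or with 200 on at least 2, where 1596 and 1473 had an unadjusted p under 0.05. They were 0 and 0 with no filter (2902 at an unadjusted p under 0.05) and 0 and 0 without the trend (1579). On 6 arrays of 3 series 14 were lower. A floor of 50, 1 probe set per gene (higher and lower) and the 6 arrays (higher) stayed within 1.5 times. Of the 14 called genes, 14 were called under quantile normalization, loess and a floor of 50, and 11 with the mean of a gene's probe sets. The difference over both hours changed sign for ZNF691 with a floor of 50 (-0.10) and for ZNF468 with quantile normalization (-0.13), loess (-0.06) and a floor of 50 (-0.057). The cause of these changes was not tested. No paired analysis was possible because each group is 1 array and the labels carry no replicate numbers; the hour is already the block. Leaving out an array leaves 1 hour with no residual degrees of freedom, so those values are the single-hour differences and medians given above. Dim probe sets limit what these arrays can show.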
